A study of Mus musculus with 9 samples.

Results

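The genes of MHC class I antigen presentation were followed across 3 mouse fibroblast lines on Affymetrix arrays. The 9 genes were the class I heavy chains H2-D1 and H2-K1, the light chain B2m, the peptide transport and loading genes Tap1, Tap2 and Tapbp, and the immunoproteasome subunits Psmb8, Psmb9 and Psmb10. All probe sets whose annotation gave exactly 1 gene symbol, being one of these 9, were taken without regard to their values. This gave 9 of the 12394 genes with such a probe set, read by 25 of the 22690 probe sets on the array, of which H2-D1 had 9, H2-K1 and Tap1 had 4 each, B2m and Tapbp had 2 each and the other 4 genes had 1 each. A further 3 probe sets, annotated to H2-D1 or H2-K1 together with other symbols, were left out.

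NIH 3T3, the parental line, is an immortal mouse embryo fibroblast line labelled wild type. SV5 is a stable NIH 3T3 clone transformed by SV40 and labelled with SV40 large T antigen, a viral oncoprotein that binds p53 and the retinoblastoma family. SV5-NN4 is a stable clone that carries SV40 large T antigen and added wild-type Nras, which encodes the small GTPase N-Ras. The lines grew in the same medium with calf serum and each was measured on 3 arrays, 9 in all. With 1 clone per genotype, an effect of either gene cannot be told apart from a difference between clones.

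Class I molecules display peptides from inside the cell to cytotoxic T cells. Proteasomes, in which interferon-induced subunits can replace the constitutive catalytic ones, cut proteins into peptides, and the TAP transporter carries these into the endoplasmic reticulum. There tapasin and chaperones load them onto a polymorphic heavy chain paired with beta-2 microglobulin. In fibroblasts the pathway is expressed at a basal level and is induced by interferons. Heavy chain genes are nearly alike in much of their sequence and differ between mouse strains, and probe sets with an _x_at suffix hold probes that can also detect related transcripts. A heavy chain signal is therefore reported under its annotated symbol but may include other class I genes.

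The replicate numbers of the arrays carried much of the variation. After line means were removed, arrays of different lines with the same number correlated at 0.261 to 0.845 over probe sets in 9 pairs, against -0.726 to 0.114 in the 18 pairs with different numbers. With line means removed from 3 arrays each, positive correlations at equal numbers push those at different numbers below 0. The rule of this work pairs equal replicate numbers, so lines were compared within them in a limma fit on log2(intensity + 1). Adjusted p-values were taken over all 22690 probe sets. The threshold for a call was an adjusted p under 0.05. As a measure of RNA integrity, the log2 ratio of 3' over 5' signal ran from 2.42 to 5.06 for Actb and from 2.36 to 5.21 for Gapdh, with both maxima on NIH 3T3 replicate 3. Nras itself read 8.18 ± 0.36 (log2 mean ± SD, n = 3) in SV5 at its brightest probe set, and 8.24 ± 0.21 in SV5-NN4. That difference of 0.06 (limma, adjusted p = 0.96) was within the error, so the arrays gave no check of the added gene. At the 2 other Nras probe sets the same difference was 0.05 to 0.27. NIH 3T3 read 7.46 ± 0.37 at the brightest. SV5, without added Nras, lay 0.72 above it (limma adjusted p = 0.12) and SV5-NN4 0.78 above it (limma adjusted p = 0.052). All 10 fibroblast markers lay at or above the median probe set level of 5.93 in every line.

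The heavy chain signal was higher in SV5-NN4 than in NIH 3T3 at 4 probe sets, 3 of H2-D1 and 1 of H2-K1, by 1.91- to 2.18-fold. In SV5 the same probe sets lay 1.63- to 1.82-fold above NIH 3T3, a difference that did not pass the test. No other member was called in any comparison. These include both probe sets of the light chain B2m, the 7 of the transporter and tapasin, and the 3 of the immunoproteasome.

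Between SV5-NN4 and NIH 3T3, 4 of 25 member probe sets were called, all higher, where 1.65% of all probe sets were called and 1.14% were called higher. With the test unadjusted, 6 members had a limma p under 0.05, against 17.1% of all probe sets. Of the 12 members at or above the median level, 4 were called, against 2.13% called higher among all probe sets at that level. Since the 4 probe sets may read overlapping transcripts, they are not 4 independent results. Between SV5 and NIH 3T3, 0 of 25 were called, where 0.0617% of all probe sets were, and 6 had an unadjusted limma p under 0.05 against 14.2% of all. Between SV5-NN4 and SV5, 0 of 25 were called against 0.864% of all, and 1 had an unadjusted limma p under 0.05 against 13.0% of all. Members higher in 3 of 3 pairs numbered 5 (20.0%) between SV5-NN4 and NIH 3T3, beside 16.9% of all probe sets. They numbered 4 (16%, beside 12.9% of all) between SV5 and NIH 3T3 and 10 (40.0%, beside 20.9%) between SV5-NN4 and SV5. Most of these 10 were heavy chain probe sets, which may read overlapping transcripts. Members lower in 3 of 3 pairs numbered 4, 4 and 5 in the same order, beside 19.0%, 17.4% and 19.6% of all probe sets, so an agreement of 3 pairs was common on these arrays. The median log2 difference of the 25 was -0.04, 0.03 and 0 in these 3 comparisons, beside -0.03, -0.04 and 0.01 for all probe sets. Comparisons with a line in common use the same arrays and are not independent of each other.

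**Figure D1:**
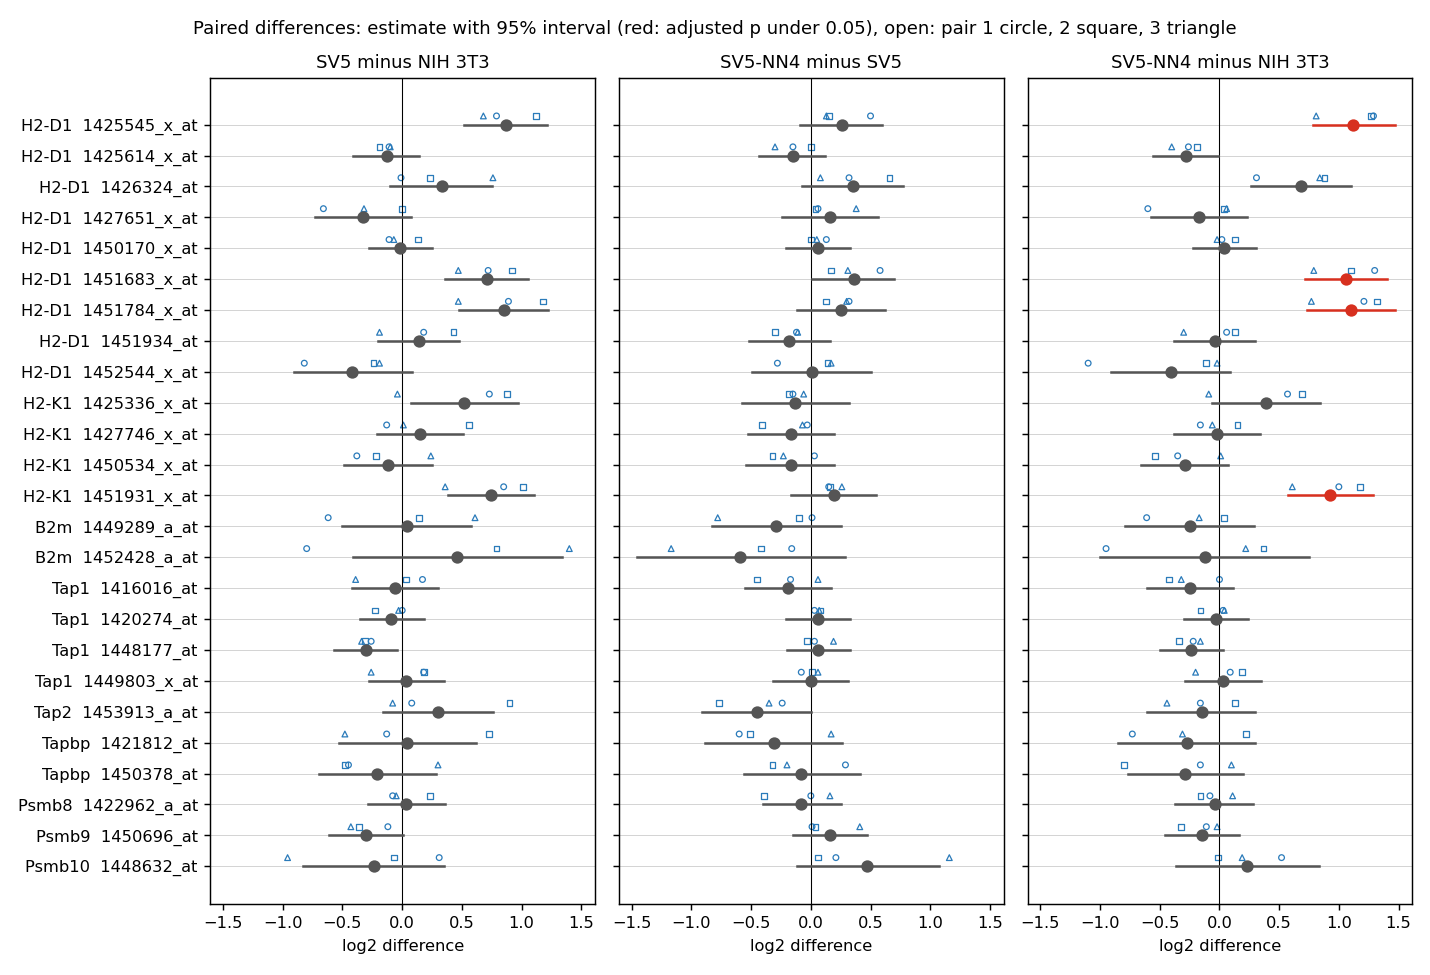
Log2 differences of the 25 probe sets (rows) in the 3 comparisons (panels), as the paired estimate with its 95% interval; open marks are the differences within each replicate number. The 4 called probe sets, in red in the panel of SV5-NN4 minus NIH 3T3, lie between 0.93 and 1.12.

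H2-D1 and H2-K1 encode classical heavy chains, which present peptides to CD8 T cells. Their promoters are shown with that of B2m because heavy chain probe sets of both genes were called and those of B2m were not. Sequences are the 250 bases before the transcript start in RefSeq (build GRCm38.p6), which holds an entry for 8 of the 9 genes, all but Tap2. Capitals mark matches on either strand to GGGATTCCC (the core of the class I kappa B site), AGTGAAAC (the class I interferon response sequence, read here as GTTTCACT), GAAANNGAA (core of the interferon-stimulated response element), TGACG (the core of a cyclic AMP response element) and CCAAT. None of the marked matches overlap in these windows. The H2-D1 window lies at chr17:35262844-35263093 on the plus strand, the H2-K1 window at chr17:34000334-34000583 on the minus strand (the second of 2 annotated starts), and the B2m window at chr2:122147437-122147686 on the plus strand.
H2-D1: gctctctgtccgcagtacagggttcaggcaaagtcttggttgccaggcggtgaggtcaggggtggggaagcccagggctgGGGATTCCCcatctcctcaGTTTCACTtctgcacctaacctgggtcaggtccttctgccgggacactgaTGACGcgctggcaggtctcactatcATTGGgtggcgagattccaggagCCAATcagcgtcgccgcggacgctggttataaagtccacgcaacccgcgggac
H2-K1: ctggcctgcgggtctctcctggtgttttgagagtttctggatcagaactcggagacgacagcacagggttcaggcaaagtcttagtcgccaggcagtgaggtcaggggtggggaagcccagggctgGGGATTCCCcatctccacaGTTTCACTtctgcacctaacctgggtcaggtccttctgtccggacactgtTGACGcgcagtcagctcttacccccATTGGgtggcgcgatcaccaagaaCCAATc
B2m: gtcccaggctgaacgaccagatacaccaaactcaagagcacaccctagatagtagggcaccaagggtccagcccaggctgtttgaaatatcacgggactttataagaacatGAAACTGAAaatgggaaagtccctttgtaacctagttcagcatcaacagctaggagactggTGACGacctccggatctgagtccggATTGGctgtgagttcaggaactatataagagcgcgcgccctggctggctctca

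In H2-D1 and H2-K1 the same 4 kinds of element followed each other at the same spacing. From the first base of the kappa B core to that of the interferon response sequence were 19 bases, from there to TGACG 50, and from there to the first CCAAT, which reads ATTGG, 25. The windows aligned over 192 columns with 172 identical bases (89.6%). B2m held no match to GGGATTCCC or AGTGAAAC, but a GAAANNGAA match 139 bases before its start, with TGACG at 78 and CCAAT at 53. Only these exact letters were searched, so other forms of a kappa B site or interferon element would be missed. Of 32851 promoter windows of this length, 0.301% held GGGATTCCC, 0.77% AGTGAAAC, 7.13% GAAANNGAA, 17.8% TGACG and 33.8% CCAAT. Among the 8 member genes searched, 2, 2, 1, 5 and 6 held them in that order. These are matches of letters in the reference genome, not measured binding sites.

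H2-D1 at 1425545_x_at had intensities of 316, 258 and 886 on NIH 3T3 replicates 1, 2 and 3, of 547, 563 and 1423 in SV5, and of 773, 625 and 1556 in SV5-NN4. The replicate 3 array was the highest of each line, so the lines overlapped as groups, while within each replicate number NIH 3T3 was lowest and SV5-NN4 highest. The log2 difference of SV5-NN4 from NIH 3T3 was 1.12 (2.18-fold, SE 0.15, limma adjusted p = 0.023), with 1.29, 1.27 and 0.81 in the 3 pairs. SV5 differed from NIH 3T3 by 0.87 (SE 0.15, limma adjusted p = 0.11), with 0.79, 1.12 and 0.68 in the pairs. Between SV5-NN4 and SV5 the difference was 0.26 (95% interval -0.09 to 0.6, limma adjusted p = 0.58).

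H2-D1 at 1451784_x_at read 200.1, 158 and 561 in NIH 3T3, 373, 361 and 779 in SV5, and 466, 395 and 957 in SV5-NN4. Its order of lines was the same in every replicate number. The difference of SV5-NN4 from NIH 3T3 was 1.1 on the log2 scale (2.14-fold, SE 0.16, limma adjusted p = 0.03). At 1451683_x_at, H2-D1 read 54.8, 62.1 and 139 in NIH 3T3, 91, 119 and 194 in SV5, and 137, 134 and 242 in SV5-NN4, so that NIH 3T3 replicate 3 and SV5 replicate 3 lay within the SV5-NN4 range. The difference there was 1.06 (2.09-fold, SE 0.15, limma adjusted p = 0.026). It was also the only member with an unadjusted limma p under 0.05 between SV5-NN4 and SV5, at a difference of 0.36 (limma adjusted p = 0.36).

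H2-K1 at 1451931_x_at read 209.7, 182 and 517 in NIH 3T3, 379, 368 and 662 in SV5, and 421, 412 and 791 in SV5-NN4. SV5-NN4 was again above NIH 3T3 in 3 of 3 pairs, by 1, 1.18 and 0.61 on the log2 scale. The fitted difference was 0.93 (1.91-fold, SE 0.15, limma adjusted p = 0.042). Against NIH 3T3, SV5 differed by 0.71 at 1451683_x_at, 0.85 at 1451784_x_at and 0.74 at H2-K1 1451931_x_at, with limma adjusted p from 0.12 to 0.13 and the same sign in 3 of 3 pairs each. Over the 9 arrays, as deviations from the mean of their replicate number, the 4 called probe sets correlated with each other at r of 0.97 to 1, a description of signals that share arrays and may share target transcripts. These 4 were chosen by their calls, and over all 7 heavy chain probe sets at or above the median level the same r ran from -0.78 to 1.

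All 4 calls were lost without the replicate block (adjusted p 0.99 to 1), and also in a paired fit on the 2 lines alone (0.094 to 0.12). They were also lost without NIH 3T3 replicate 2 or any one of the 3 SV5-NN4 arrays, and 3 of them without SV5 replicate 1 or SV5 replicate 2, with adjusted p up to 0.22 and differences of 0.8 to 1.23 where the call was lost. H2-K1 1451931_x_at was lost without SV5 replicate 3 and with an intensity trend (adjusted p = 0.064) as well. Without NIH 3T3 replicate 3, the array with the highest 3' to 5' ratios, 4 were called.

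**Figure D2:**
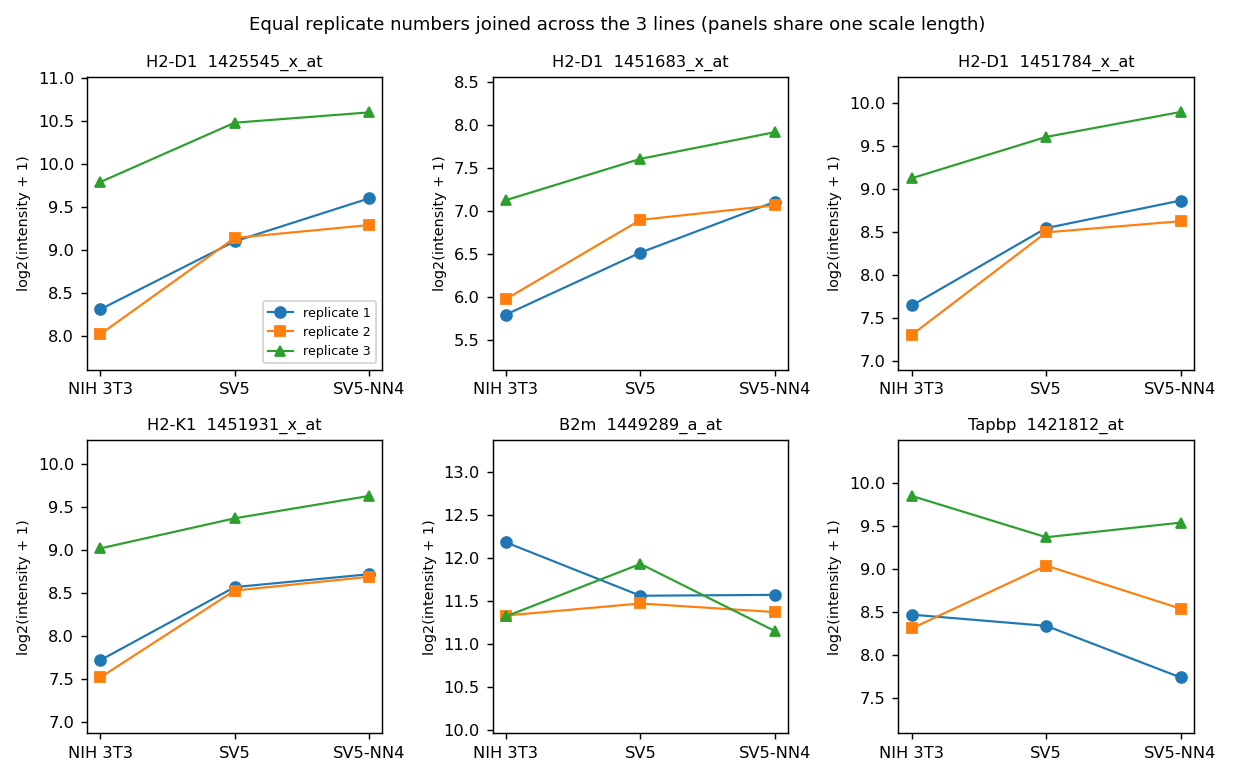
Log2(intensity + 1) of 6 probe sets in the 3 lines, with arrays of equal replicate number joined. NIH 3T3 is lowest and SV5-NN4 highest on every joined line of the 4 heavy chain panels, while for B2m and Tapbp a different cell line is lowest in each replicate number.

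The other 9 heavy chain probe sets were not called. H2-D1 at 1426324_at, which has no _x_at suffix, read 109, 81.4 and 168 in NIH 3T3, 108, 95.3 and 287 in SV5, and 135, 151 and 302 in SV5-NN4. SV5-NN4 was higher than NIH 3T3 in 3 of 3 pairs, by 0.31, 0.88 and 0.84 on the log2 scale, and the fitted 0.68 (SE 0.18) had a limma adjusted p of 0.12. It was called without NIH 3T3 replicate 1 (difference 0.85, adjusted p = 0.038). H2-K1 at 1425336_x_at read 249, 255 and 873 in NIH 3T3, 412, 468 and 852 in SV5, and 371, 412 and 818 in SV5-NN4. Its replicate 1 and 2 arrays were lowest in NIH 3T3 and its replicate 3 arrays were nearly level, and the difference of SV5-NN4 from NIH 3T3 was 0.39 (95% interval -0.06 to 0.84, limma adjusted p = 0.36). H2-K1 at 1450534_x_at had the opposite sign, at -0.29 (95% interval -0.66 to 0.07, limma adjusted p = 0.4). The 6 heavy chain probe sets below the median level differed by -0.41 to 0.04 between SV5-NN4 and NIH 3T3, with a median of -0.1 and none called. In 2 of them every line mean lay at or below 4.25, the highest reading of 9 probe sets for bacterial control transcripts (3.18 to 4.25), so that a change there could go unseen.

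**Figure D3:**
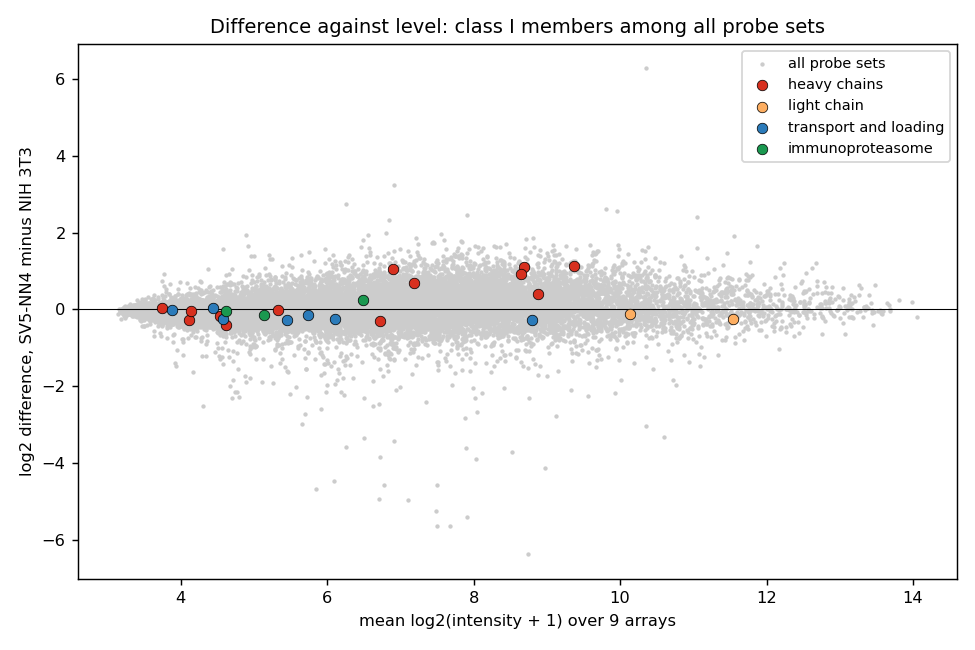
Log2 difference of SV5-NN4 from NIH 3T3 (vertical) against the mean log2(intensity + 1) over 9 arrays (horizontal) for all 22690 probe sets in grey and the 25 members in colour by role. The heavy chain probe sets near 1 all lie above the median level of 5.93, and those below it lie between -0.41 and 0.04.

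B2m encodes beta-2 microglobulin, the light chain that every classical class I molecule needs to reach the surface. At 1449289_a_at it read 4637, 2578 and 2556 in NIH 3T3, 3016, 2834 and 3893 in SV5, and 3033, 2643 and 2272 in SV5-NN4. The lines overlapped, and no line was the highest in every replicate number. SV5-NN4 differed from NIH 3T3 by -0.25 (95% interval -0.79 to 0.29, limma adjusted p = 0.64), and SV5 by 0.04 (95% interval -0.5 to 0.58, limma adjusted p = 0.95). At 1452428_a_at, B2m read 1717, 565 and 1154 in NIH 3T3, 988, 978 and 3041 in SV5, and 886, 729 and 1348 in SV5-NN4. It was lower in SV5-NN4 than in SV5 in 3 of 3 pairs, by -0.16, -0.42 and -1.17, without a call (-0.59, SE 0.37, limma adjusted p = 0.65).

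Tap1 and Tap2 encode the subunits of the peptide transporter, and Tapbp encodes tapasin, which holds the empty heavy chain next to it. Tap1 at 1416016_at read 64.8, 72 and 83.5 in NIH 3T3, 73, 73.5 and 63.6 in SV5, and 64.8, 53.4 and 66.5 in SV5-NN4. These values overlapped, and SV5-NN4 differed from NIH 3T3 by -0.25 (95% interval -0.61 to 0.11, limma adjusted p = 0.47). The other 3 Tap1 probe sets were dim, with means over the 9 arrays of 3.89 to 4.58 on the log2 scale, and one of them, 1448177_at, was below NIH 3T3 in 3 of 3 pairs in both derived lines. Its differences were -0.3 for SV5 (95% interval -0.57 to -0.04, limma adjusted p = 0.29) and -0.24 for SV5-NN4 (limma adjusted p = 0.34).

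Tap2 read 34, 38.7 and 97.8 in NIH 3T3, 36.1, 73 and 92.2 in SV5, and 30.4, 42.3 and 72.1 in SV5-NN4. SV5-NN4 was below SV5 in 3 of 3 pairs, by -0.24, -0.77 and -0.35, with a fitted -0.45 (SE 0.19, limma adjusted p = 0.39). Tapbp at its brighter probe set, 1421812_at, read 354, 317 and 921 in NIH 3T3, 324, 527 and 659.6 in SV5, and 213, 370.1 and 741 in SV5-NN4. Most of its variation, 81.3%, lay between replicate numbers and 4.64% between lines, against 63.9% and 34.3% for H2-D1 1425545_x_at. Over all 7 transport and loading probe sets, differences of SV5-NN4 from NIH 3T3 ran from -0.29 to 0.03 with a median of -0.24, and 6 of the 7 were below 0.

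**Figure D4:**
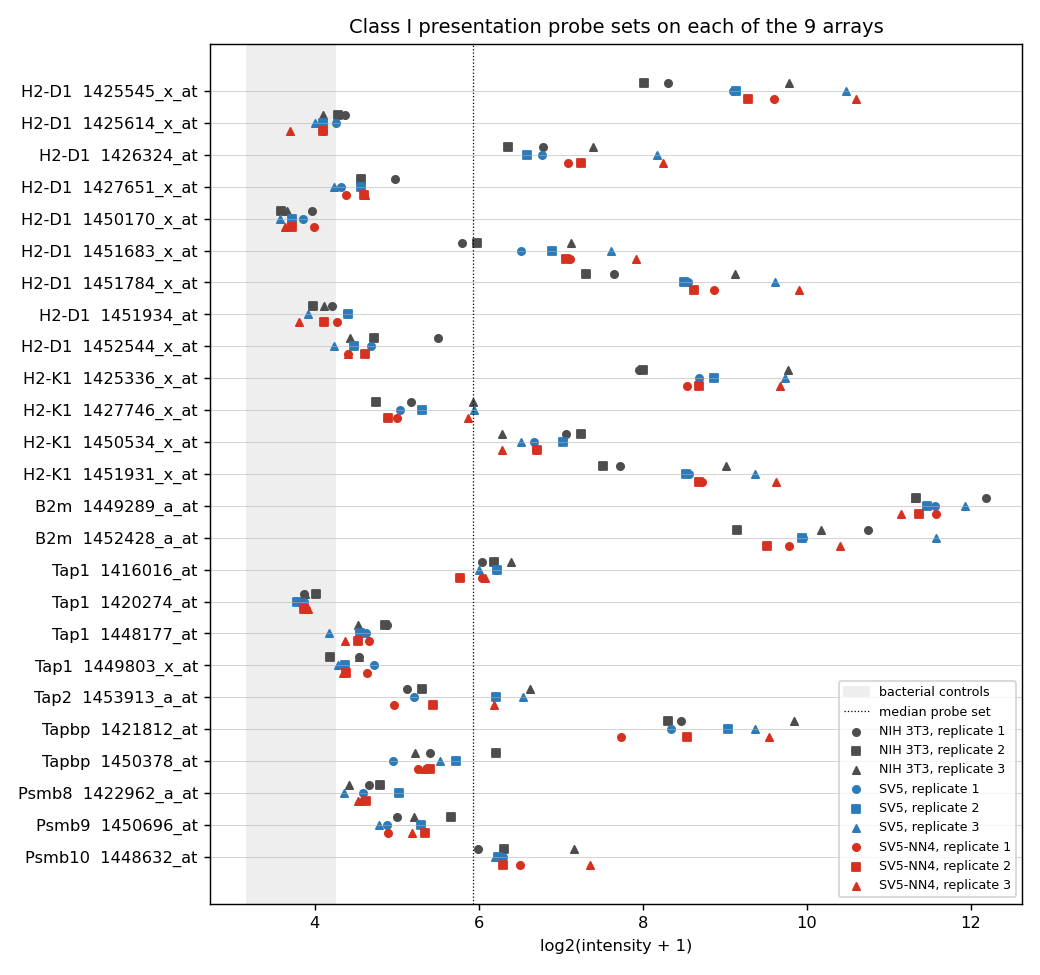
Log2(intensity + 1) of the 25 probe sets (rows) on the 9 arrays, with colour for the line and shape for the replicate number; grey marks the range of bacterial controls and the dotted line the median probe set. Replicate 3 arrays (triangles) stand to the right in each line for the brighter H2-D1 probe sets and for Tapbp 1421812_at, and 3 members stay at or below 4.25 in every line mean.

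Psmb8, Psmb9 and Psmb10 encode the catalytic subunits that interferon brings into the immunoproteasome. Psmb8 read 24.3, 26.8 and 20.4 in NIH 3T3, 23, 31.6 and 19.6 in SV5, and 23, 23.8 and 22 in SV5-NN4, with differences between lines of -0.08 to 0.03. The start of Psmb9 and that of Tap1, on the opposite strand, have 225 bases between them. Psmb9 read 31, 49.7 and 36 in NIH 3T3, 28.5, 38.5 and 26.4 in SV5, and 28.7, 39.7 and 35.5 in SV5-NN4. Psmb9 was below NIH 3T3 in 3 of 3 pairs in both derived lines, at -0.3 in SV5 (SE 0.13, limma adjusted p = 0.36) and -0.15 in SV5-NN4 (limma adjusted p = 0.62). Psmb10 read 62.4, 78.4 and 142 in NIH 3T3, 77.6, 74.6 and 72.6 in SV5, and 90, 77.6 and 163 in SV5-NN4. Its largest step, 1.16 between SV5-NN4 and SV5, was in replicate 3 alone, and the fitted 0.47 had a 95% interval of -0.12 to 1.07 (limma adjusted p = 0.54).

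The constitutive counterparts that these subunits replace are Psmb5, Psmb6 and Psmb7, in the same order Psmb8, Psmb9 and Psmb10. Psmb7 rose by 1.42 on the log2 scale from 8.88 ± 1.62 (SD, n = 3) in NIH 3T3 to 10.3 ± 1.3 in SV5-NN4 (SE 0.23, limma adjusted p = 0.041), with 1.21, 1.88 and 1.17 in the pairs. Psmb5 differed by 0.82 (SE 0.16, limma adjusted p = 0.06) and Psmb6 by 0.87 (SE 0.25, limma adjusted p = 0.14), each higher in 3 of 3 pairs. The differences of Psmb8, Psmb9 and Psmb10 in that comparison were -0.04, -0.15 and 0.23. Whether the 2 sets of subunits moved differently was not tested. The Psmb7 call was lost without the replicate block (adjusted p = 1), with only the 2 lines compared, with a pseudocount of 16, and without any array but NIH 3T3 replicate 1 and SV5 replicate 2.

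Other parts of the pathway were described with gene lists, each gene at its brightest probe set. Of 11 peptide loading chaperones and trimming enzymes, 1 was called between SV5-NN4 and NIH 3T3 and 0 in the other comparisons, with a median of 0.19 beside -0.03 for all probe sets. It was Lap3, a cytosolic leucine aminopeptidase, which rose by 0.99 (SE 0.17, limma adjusted p = 0.046). SV5 differed from NIH 3T3 in Lap3 by 0.88 (limma adjusted p = 0.12). The Lap3 call was lost in 5 of 7 other settings and without any array but NIH 3T3 replicates 1 and 3. None of the 4 measured proteasome activators and assembly factors was called in limma, and 1 had an unadjusted p under 0.05. It was Psme3, chosen after its values were seen, at 1.29 (limma adjusted p = 0.095), with -0.23 to 0.38 at its 2 other probe sets.

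Among 14 measured regulators of class I transcription, 0 were called in limma in any comparison, with 1 at an unadjusted p under 0.05 between SV5-NN4 and NIH 3T3, and a median of 0.05. Irf1, an interferon-induced activator of class I and immunoproteasome genes, had line means of 8.63 ± 0.19 for NIH 3T3, 8.56 ± 0.23 for SV5 and 8.46 ± 0.23 for SV5-NN4 (log2, SD, n = 3 each). Rfx5, a subunit of the RFX complex that binds class I and class II promoters, read 7.28 ± 0.46, 7.85 ± 0.04 and 7.63 ± 0.06. It was above NIH 3T3 in 3 of 3 pairs in SV5 (difference 0.58, SE 0.19, limma adjusted p = 0.26). The class I transactivator Nlrc5 had no probe set with its symbol alone.

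Genes induced by interferon gamma lay mostly below 0 against NIH 3T3 in both derived lines, without a call, as did marker lists of other cell types. Of 13 measured GTPases and chemokines of this kind, 3 lay above 0 between SV5-NN4 and NIH 3T3 and 1 between SV5 and NIH 3T3. Their medians were -0.19 and -0.21, beside -0.03 and -0.04 for all probe sets. None was called in limma in either, with 1 and 2 at an unadjusted p under 0.05, against 17.1% and 14.2% of all probe sets. Most of the 13 lay below the median probe set level of 5.93 in every line. Gbp3 and Gbp6 had line means of 3.43 to 3.9, within the range of the bacterial controls, where a change could go unseen. Between SV5-NN4 and SV5, 8 of the 13 lay above 0, with a median of 0.03. Between SV5-NN4 and NIH 3T3, 1 of 6 endothelial, 1 of 6 epithelial and 2 of 12 leukocyte and macrophage markers lay above 0. Of the class II presentation markers, 3 of 6 did. The lowest, Gbp2, a guanylate-binding GTPase named here after its values were seen, read 7.12, 6.13 and 5.67 in NIH 3T3, SV5 and SV5-NN4 on the log2 scale (limma adjusted p = 0.22 for SV5-NN4 against NIH 3T3). Of 8 interferon receptors, kinases and feedback genes, 1 was above 0 in that comparison. It was the kinase Jak1, also named after its values were seen, at 1 (SE 0.21, limma adjusted p = 0.073), with -0.19 to 0.97 at its other probe sets.

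**Figure D5:**
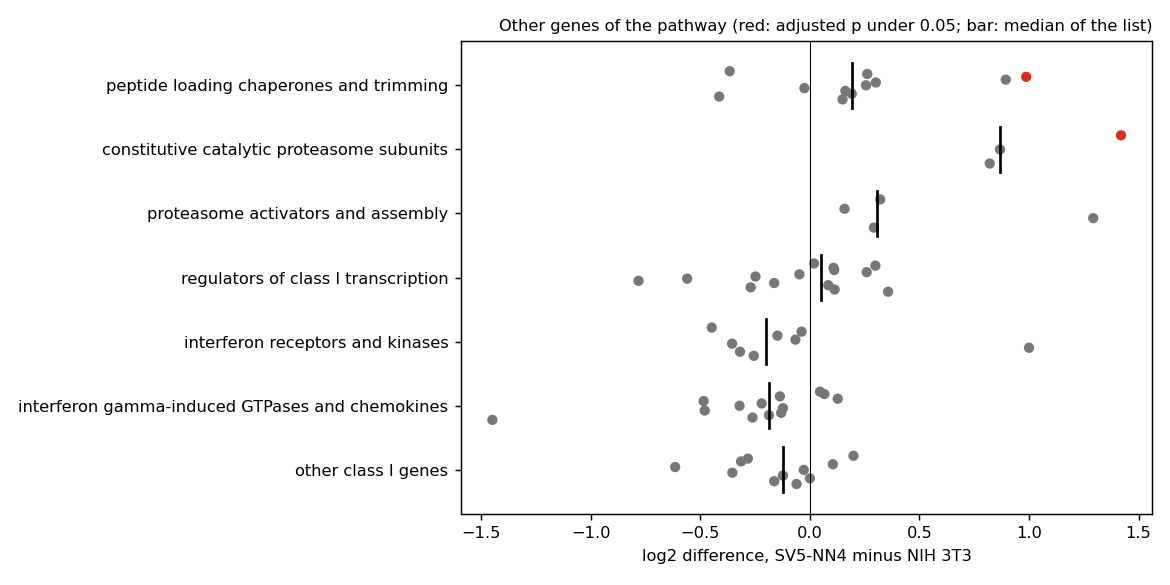
Log2 differences of SV5-NN4 from NIH 3T3 for the other genes of the pathway, 1 point per gene at its brightest probe set, with a bar at the median of each list. Red marks the called genes, Lap3 at 0.99 and Psmb7 at 1.42, and the interferon gamma-induced genes lie mostly below 0, with a median of -0.19.

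Of 22 other class I and class I-like genes listed, 11 were measured by a probe set with 1 symbol, and 0 were called in limma in any comparison. Between SV5-NN4 and NIH 3T3, 2 of the 11 lay above 0, with a median of -0.12, and 1 had an unadjusted p under 0.05. H2-Q2, H2-Q10 and H2-T24 had line means of 3.28 to 4.16, within the range of the bacterial controls, where a change could go unseen. Between SV5-NN4 and SV5, 7 of the 11 lay above 0, and 2 had an unadjusted limma p under 0.05. These were H2-M3 and Fcgrt, both named after their values were seen and lower in SV5-NN4 in 3 of 3 pairs. H2-M3, a nonclassical heavy chain that presents formylated peptides, differed by -0.61 on the log2 scale (SE 0.12, limma adjusted p = 0.083). Fcgrt differed by -1.12 (SE 0.37, limma adjusted p = 0.24). The 3 probe sets shared between H2-D1 or H2-K1 and other symbols differed by -0.28 to 0.05 between SV5-NN4 and NIH 3T3, with limma adjusted p from 0.3 to 0.92. Their means over the 9 arrays were 4.5 to 6.04 on the log2 scale.

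The mean of the 9 member genes, taken at their brightest probe sets as deviations from the replicate number's mean, stayed between -0.19 and 0.21 on the log2 scale over the 9 arrays. Among 7466 other genes the 5 profiles most like it were those of Cul1, Rpl13a, Hsbp1, Ruvbl1 and Ndufs4, with r of 0.95 to 0.96 over the 9 arrays, which all these genes share. The mean joins the called H2-D1 1425545_x_at with probe sets that were not called, and its range was small. Among the uncalled is the brightest H2-K1 probe set, 1425336_x_at.

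No marker of another cell type was called beside the heavy chain signal. Of 12 leukocyte and macrophage markers, 0 were called by limma between SV5-NN4 and NIH 3T3, with 2 at an unadjusted p under 0.05 and a median of -0.22. Their summed intensity was 542 to 873 in NIH 3T3, 504 to 634 in SV5 and 582 to 664 in SV5-NN4. Ptprc, the pan-leukocyte antigen CD45, read 3.86, 3.97 and 3.76 in these lines on the log2 scale, within the range of the bacterial controls. Only 2 of the 12 markers, Ptprc and Coro1a, were that dim in every line. Others were brighter: SV5-NN4 had 4 of the 12 at or above the median probe set level, SV5 had 5 and NIH 3T3 had 6. Of 6 class II presentation markers, 3 were above 0, with a median of 0 and none called, and their summed intensity was 207 to 310.1 in NIH 3T3, 241 to 295 in SV5 and 209 to 284 in SV5-NN4. The 6 endothelial and 6 epithelial markers had medians of -0.25 and -0.03, all below the median probe set level in every line. Among the fibroblast markers, Thy1 fell by 2.09 and Pdgfra fell by 1.2 between NIH 3T3 and SV5-NN4 (limma adjusted p = 0.0018 and 0.022, and 0.0014 and 0.66 without the replicate block), and the part of this in the heavy chain result was not tested. In bulk RNA of a line, a higher signal per cell and a larger share of cells with the signal cannot be told apart. The 3' to 5' ratio of Actb differed between SV5-NN4 and NIH 3T3 by -0.18, 0.2 and -1.4 in the 3 pairs and that of Gapdh by 0.02, 0.53 and -2.16. Both ratios differed most in replicate 3, where the differences of the 4 called heavy chain probe sets were smallest (0.61 to 0.81), and the part of RNA integrity in the heavy chain result was not tested. In replicate 3, SV5 differed from NIH 3T3 by -2.65 in the Actb ratio and -2.84 in the Gapdh ratio. SV5-NN4 differed there from SV5 by 1.24 and 0.69. The part of RNA integrity in these 2 comparisons was not tested either.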

How the data were processed

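The authors deposited linear intensities for 22690 probe sets on 9 Affymetrix arrays, 3 per line. Per the submitters' processing notes they used RMA, without a stated version or settings. Per the labels' protocols, total RNA was extracted with Trizol and labelled by the one-cycle procedure. Upper quartiles of the arrays were 165 to 239.7 and medians 56.2 to 62.4, so they did not share 1 distribution. The number of arrays limits the precision.

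Groups and replicate numbers were read from the titles. The labels do not tell whether replicates were grown separately, and p-values then cover only array-to-array spread, which may be technical. The pairing of equal replicate numbers was set by the rule of this work. The 9 equal-numbered pairs correlated at 0.261 or above, and pairs with different numbers at up to 0.114. Values were used as log2(intensity + 1) and tested with limma 3.58.1 in R 4.3.3 (lmFit on all 9 arrays with the replicate number as a block, eBayes, Benjamini-Hochberg adjustment over all probe sets), a script tested on simulated data. Gene names came from the platform annotation; 9 of 9 member gene IDs matched RefSeq. Members, the 12 lists and tests were chosen with earlier results of these data known. Named were all members, Nras, fixed regulators and constitutive subunits, up to 3 called genes per list and the 5 most similar genes. A few uncalled list genes were named after their values were seen. Alternatives were no block, 2 lines only, a pseudocount of 16, centring, quantile normalization, a filter at the median level, an intensity trend and leaving out each array.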

Additional observations from a re-analysis of the deposited data

How the results depend on the processing

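Of the 1161 member differences recomputed under other settings, 50 changed sign, all of them uncalled both ways, and no called difference reversed. The number of called members between SV5-NN4 and NIH 3T3 was 0 with no replicate block and 0 with only the 2 lines in the paired fit, 3 with an intensity trend (without H2-K1), and 4 with a pseudocount of 16, centring, quantile normalization or the filter. Leaving out single arrays gave 0 to 5 called members there and 0 in the other 2 comparisons.

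Calls over the whole array moved more. Between SV5 and NIH 3T3 the pairing gave 14, the filter at the median level 13 and no replicate block 1. Only the 2 lines, a pseudocount of 16, centring and quantile normalization each gave 0. An intensity trend gave 6, and leaving out single arrays gave 0 to 49. Between SV5-NN4 and SV5 the 196 calls became 19 with no replicate block, 1504 with only the 2 lines and 14 to 950 without single arrays. A pseudocount of 16, centring, quantile normalization, the filter and an intensity trend gave 138 to 286 there. Between SV5-NN4 and NIH 3T3 the 375 became 18 with no replicate block, 18 with only the 2 lines and 13 to 1239 without single arrays. The same other settings gave 262 to 446 in that comparison. Of the members, 3 stayed at or below the bacterial controls in every line, where differences cannot be seen.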
